A study of Mus musculus with 37 samples.

Results

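Helper and regulatory T cells were followed by 10 of their genes in mouse colon: Cd3d, Cd3e, Cd3g, Cd4, Cd28, Icos, Ctla4, Foxp3, Il2ra and Il10. They are 10 of the 19938 genes that the arrays measured with a cluster of probes of their own. Each gene was read from the transcript cluster annotated to its symbol alone, and all 10 had exactly 1 such cluster.

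The study compared knockout (KO) mice of the strain B6.129S4-Timp1tm1Pds/J with C57BL/6J wild-type (WT) mice. In the KO strain Timp1 is targeted, which encodes an inhibitor of matrix metalloproteinases, and whether the WT mice were littermates is not given in the sources used here. Colitis was induced by oral dextran sodium sulphate (DSS), a polysaccharide that injures the colonic epithelium, in an acute and a chronic phase, each with its own controls. Total RNA from snap frozen whole colon of 37 animals was measured with the Mouse Gene 1.0 ST array of Affymetrix, with an array for each animal. The acute phase held 6 KO mice on DSS, 5 WT mice on DSS, 3 KO controls and 3 WT controls. The chronic phase held 5 mice in each group: KO on DSS, WT on DSS, KO controls and WT controls. The dose and length of DSS, the age and sex of the mice and the deleted stretch of Timp1 are not given in the sources used here.

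The products of these genes act at successive points of a T cell's response. Cd3d, Cd3e and Cd3g encode chains of the CD3 complex, which carries the signal of the T cell receptor in all T cells, and Cd4 encodes the coreceptor for MHC class II found on helper and regulatory T cells. Cd28 and Icos encode costimulatory receptors, and Ctla4 encodes an inhibitory receptor that competes with CD28 for the same ligands. Foxp3 encodes the transcription factor that specifies regulatory T cells, Il2ra the alpha chain of the interleukin 2 receptor, and Il10 an anti-inflammatory cytokine made by regulatory T cells and by several other cells. Mice that lack regulatory T cells or interleukin 10 are known to develop inflammation of the gut.

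Values are log2 signals, so a difference of 1 is a doubling. A gene passed the test in a comparison when its adjusted p was under 0.05 in limma's fit over all 19938 genes, and each difference is given ± the standard error (SE) of that fit. The p values set each difference against a spread between animals that is shared over all groups. The number of arrays per group, 3 to 6, limits their precision. In whole colon, fewer or more cells of a type and less or more RNA per cell cannot be told apart. Under acute DSS Timp1 followed the labels, with a mean of 7.61 ± 0.57 in KO acute DSS (SD, n = 6) and 10.75 ± 1.04 in WT acute DSS (SD, n = 5), a difference of -3.14 ± 0.33 (limma adjusted p = 1.34e-07). It did not separate the genotypes in chronic controls, at 0.01 ± 0.34, and where the probes lie relative to the deleted stretch is not given. Epithelial and leukocyte markers were present in each array, with Epcam between 10.34 and 12.16 and Ptprc between 8.06 and 11.73. Array medians lay between 7.67 and 7.76. Y-linked signal was found in 2 arrays, KO acute control replicate 2 and KO acute DSS replicate 4. The animal numbers in the titles come in 4 series. WT acute mice and KO acute DSS replicates 1 to 3 belong to series 1, KO acute controls and KO acute DSS replicates 4 to 6 to series 2, WT chronic DSS and WT chronic controls 1 to 3 to series 3, and KO chronic mice with WT chronic controls 4 and 5 to series 4.

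Several of the 10 genes are neighbours in the mouse genome. Cd3g, Cd3d and Cd3e follow one another on chromosome 9, and Cd28, Ctla4 and Icos follow one another on chromosome 1. The promoters of the 4 genes that passed the test between KO and WT mice under acute DSS are shown here, as RefSeq gives them on build GRCm38.p6, from 250 bases before to 50 bases after the start site. Cd3d and Cd3g run in opposite directions from start sites 1355 bases apart, and both were higher in KO. Ctla4 and Foxp3 were lower in KO. The capitals mark matches to 4 motifs searched on both strands: TTCNNNGAA for STAT factors, GGAAAA for NFAT, TGTGGT for RUNX and TGTTTAC for forkhead factors.
Cd3d, chr9:44981536-44981835, plus strand: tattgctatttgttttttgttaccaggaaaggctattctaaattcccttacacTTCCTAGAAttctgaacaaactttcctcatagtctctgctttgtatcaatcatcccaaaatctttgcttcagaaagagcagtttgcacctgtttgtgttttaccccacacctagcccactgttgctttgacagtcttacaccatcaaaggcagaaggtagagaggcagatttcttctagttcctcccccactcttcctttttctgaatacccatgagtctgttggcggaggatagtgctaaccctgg
Cd3g, chr9:44980382-44980681, minus strand: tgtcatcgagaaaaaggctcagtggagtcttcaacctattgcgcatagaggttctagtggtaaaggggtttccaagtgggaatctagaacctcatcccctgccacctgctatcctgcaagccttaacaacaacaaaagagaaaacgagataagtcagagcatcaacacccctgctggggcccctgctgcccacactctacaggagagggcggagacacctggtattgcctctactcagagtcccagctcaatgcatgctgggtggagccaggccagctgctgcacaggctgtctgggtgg
Ctla4, chr1:60908775-60909074, plus strand: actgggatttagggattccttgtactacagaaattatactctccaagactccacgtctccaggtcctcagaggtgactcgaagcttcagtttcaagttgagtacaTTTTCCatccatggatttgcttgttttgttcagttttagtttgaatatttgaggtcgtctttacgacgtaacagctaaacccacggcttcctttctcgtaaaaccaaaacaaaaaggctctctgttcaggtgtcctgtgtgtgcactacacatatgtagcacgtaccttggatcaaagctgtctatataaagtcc
Foxp3, upstream window, chrX:7579426-7579725, plus strand: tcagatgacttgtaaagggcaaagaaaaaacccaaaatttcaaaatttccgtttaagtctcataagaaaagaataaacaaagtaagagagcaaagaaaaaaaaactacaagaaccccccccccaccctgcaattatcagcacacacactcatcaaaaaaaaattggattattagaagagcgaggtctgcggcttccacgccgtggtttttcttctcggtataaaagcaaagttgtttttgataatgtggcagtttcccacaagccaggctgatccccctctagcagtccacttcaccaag
Foxp3, downstream window, chrX:7580233-7580532, plus strand: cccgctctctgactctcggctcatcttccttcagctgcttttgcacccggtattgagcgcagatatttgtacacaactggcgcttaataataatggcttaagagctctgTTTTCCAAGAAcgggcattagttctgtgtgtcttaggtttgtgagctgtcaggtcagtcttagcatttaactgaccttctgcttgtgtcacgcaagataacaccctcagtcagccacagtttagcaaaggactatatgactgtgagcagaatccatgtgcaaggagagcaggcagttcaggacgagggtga
The Cd3d window held 1 STAT match, at position -197 from the start site. The Ctla4 window held 1 NFAT match on the reverse strand, and the downstream Foxp3 window held a STAT and a reverse-strand NFAT match that overlap. No RUNX or forkhead match lay in any of the 7 windows found for 6 of the 10 genes, which also include Cd3e and Il2ra. Over 32851 promoter windows of the same length the STAT motif occurred in 8.30%, NFAT in 23.4%, RUNX in 16.8% and forkhead in 3.65%. These matches are descriptions of the letters.

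**Figure D1:**
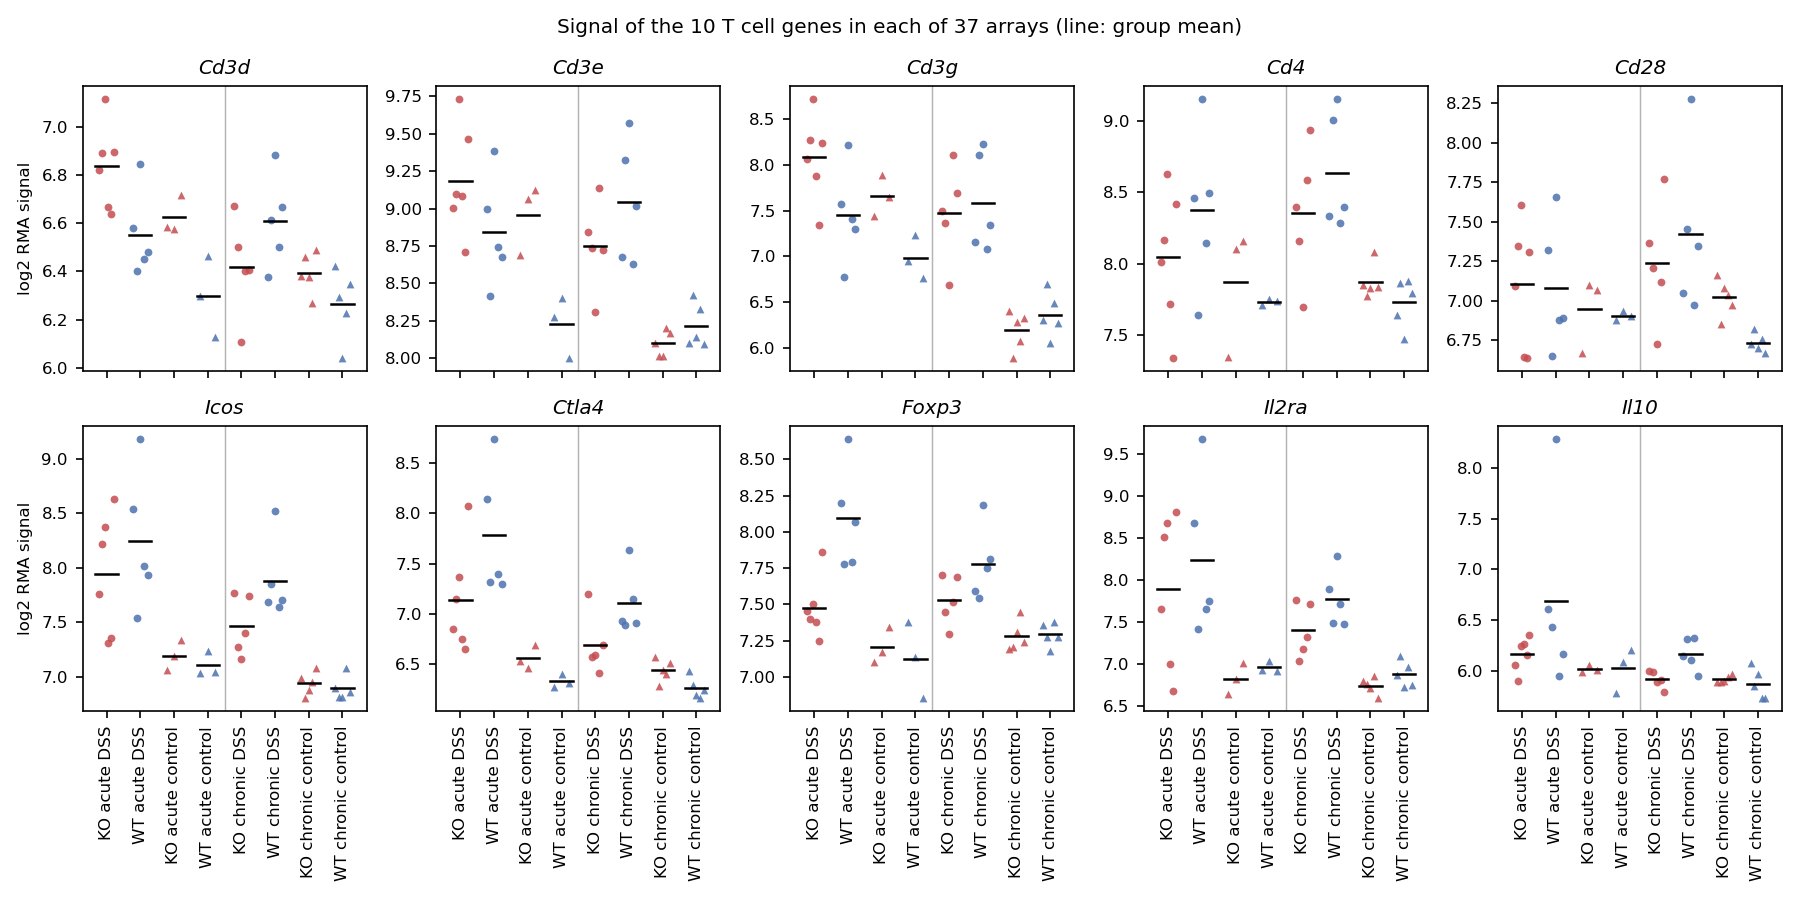
Log2 signal of each of the 10 genes (vertical axis) in every array, by group (horizontal axis), with KO in red, WT in blue, DSS as circles, controls as triangles and the group mean as a line; each panel has its own vertical scale that does not start at 0. Foxp3 is highest in WT acute DSS (7.78 to 8.64), and Cd3g has its lowest groups in the chronic controls of both genotypes.

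The first question was how acute DSS changed these genes in each genotype. In WT colon 6 of 10 rose with acute DSS and none fell: Cd3e, Icos, Ctla4, Foxp3, Il2ra and Il10. Over all genes, 41.2% passed in this comparison, 19.4% upward. The median difference of the 10 was 0.65, against 0.01 over all genes. Ctla4 had the largest difference, 2.73-fold. In KO colon none of the 10 passed, where 1.12% of all genes did, and 3 (Icos, Ctla4 and Il2ra) had an unadjusted p under 0.05. The median difference of the 10 in KO was 0.25, against 0.00 over all genes.

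Among the CD3 chains, Cd3e was 9.00, 8.42, 9.38, 8.74 and 8.68 in WT acute DSS, against 8.28, 8.40 and 8.00 in WT acute controls. Every DSS animal lay above every control, the lowest of them narrowly, as in 17.7% of all genes, and the difference was 0.62 ± 0.21 (limma adjusted p = 0.0168). Cd3d and Cd3g did not pass in WT, at 0.25 ± 0.12 (adjusted p = 0.0825) and 0.47 ± 0.29 (adjusted p = 0.198). In KO colon Cd3e had a lowest, median and highest value of 8.71, 9.09 and 9.73 with DSS, against 8.69, 9.06 and 9.12 in the 3 controls. These groups overlapped over most of their range, and the difference was 0.22 ± 0.20 (adjusted p = 0.614).

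Cd4 did not pass in either genotype, with 0.18 ± 0.27 in KO (adjusted p = 0.785) and 0.65 ± 0.27 in WT (adjusted p = 0.0578). Cd28 was close to its control level, at 0.16 ± 0.23 in KO (95% interval -0.30 to 0.62) and 0.17 ± 0.23 in WT (95% interval -0.30 to 0.65). By contrast, Icos did pass in WT. Icos, the inducible costimulator, was 8.53, 7.54, 9.18, 8.02 and 7.93 in WT acute DSS, against 7.04, 7.24 and 7.04 in WT controls. The groups did not overlap, and the difference was 1.13 ± 0.26 (adjusted p = 9.06e-04). In KO mice Icos differed by 0.75 ± 0.25 (adjusted p = 0.132), and 1 of 6 DSS animals, at 7.31, lay within the control range of 7.06 to 7.34.

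Ctla4 was 8.14, 7.32, 8.74, 7.40 and 7.30 in WT acute DSS, against 6.27, 6.41 and 6.32 in WT controls. All DSS animals lay far above all controls, by 1.45 ± 0.26 (adjusted p = 4.70e-05). In KO mice Ctla4 was 6.85, 7.14, 7.37, 6.75, 6.65 and 8.07 with DSS, against 6.53, 6.46 and 6.69 in controls. Replicates 3 and 6 of the KO mice reached the range of the WT mice on DSS, and the KO difference of 0.58 ± 0.25 did not pass (adjusted p = 0.235).

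Foxp3 was 8.20, 7.78, 8.64, 7.79 and 8.07 in WT acute DSS, against 7.38, 7.13 and 6.85 in WT controls. The groups did not overlap, and the difference of 0.97 ± 0.15 had the lowest adjusted p of the 10 (9.35e-06). In KO mice Foxp3 was 7.45, 7.40, 7.50, 7.38, 7.25 and 7.86 with DSS, against 7.10, 7.17 and 7.35 in controls. All but 1 of the KO animals on DSS lay above the controls, but by little, 0.27 ± 0.15 (adjusted p = 0.370).

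Il2ra, which is on regulatory and on activated helper T cells, had the widest spread. It was 8.67, 7.43, 9.68, 7.66 and 7.75 in WT acute DSS, against 6.94, 7.04 and 6.92 in WT controls, a difference of 1.27 ± 0.38 (adjusted p = 0.00822). In KO mice it was 7.66, 8.51, 8.67, 7.01, 6.68 and 8.81 with DSS, against 6.64, 6.83 and 7.02 in controls, 1.06 ± 0.37 (adjusted p = 0.141). Replicates 4 and 5 of the KO mice stayed at the control level and the other 4 lay clearly above it. Il10 was 6.61, 6.43, 8.28, 5.95 and 6.17 in WT acute DSS, against 5.79, 6.09 and 6.21 in WT controls. Its difference of 0.66 ± 0.26 (adjusted p = 0.0376) rested on replicate 3, without which it was 0.26 ± 0.12 (adjusted p = 0.0848).

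The KO response also depended on the settings. The KO acute controls are all of series 2, and within that series, with 3 DSS mice and 3 controls, none of the 10 passed and none of all genes did. Il2ra differed by 0.67 ± 0.51 there (adjusted p = 0.70), Icos by 0.57 ± 0.34 (adjusted p = 0.633) and Cd3g by 0.16 ± 0.23 (adjusted p = 0.841), while Cd4 was at -0.05 ± 0.32 and Cd28 at -0.08 ± 0.21. With array weights over all arrays, which give less weight to arrays far from their group, Icos (0.84, adjusted p = 0.00170), Ctla4 (0.56, adjusted p = 0.0180) and Il2ra (1.26, adjusted p = 0.00108) passed in KO.

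Replicate 3 of the WT mice on acute DSS was the highest of its group for all 10 genes. In the same array the mean of 8 pan-leukocyte markers was 11.06, against 8.97 to 10.04 in the other 4, and the mean of 10 epithelial markers was 10.57, against 11.64 to 12.51. The part of these shifts in the T cell values was not tested. Without that array Icos, Ctla4, Foxp3 and Il2ra still passed, at 0.90, 1.21, 0.84 and 0.91, and Cd3e did not (0.48, adjusted p = 0.0617). Fitted on the 2 WT groups alone, Cd3e (adjusted p = 0.0536), Il2ra (adjusted p = 0.0770) and Il10 (adjusted p = 0.312) missed. Cd3e also missed without WT control replicate 3 (0.51, adjusted p = 0.110), and Il10 without any 1 of the WT controls (adjusted p of 0.143, 0.0741 and 0.0541). For Il2ra in KO mice, leaving out DSS replicate 5 gave 1.30 ± 0.35 and a pass (adjusted p = 0.0351), and Cd4 in WT mice passed without DSS replicate 2 (0.83, adjusted p = 0.0137) or 4 (0.71, adjusted p = 0.0486).

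**Figure D2:**
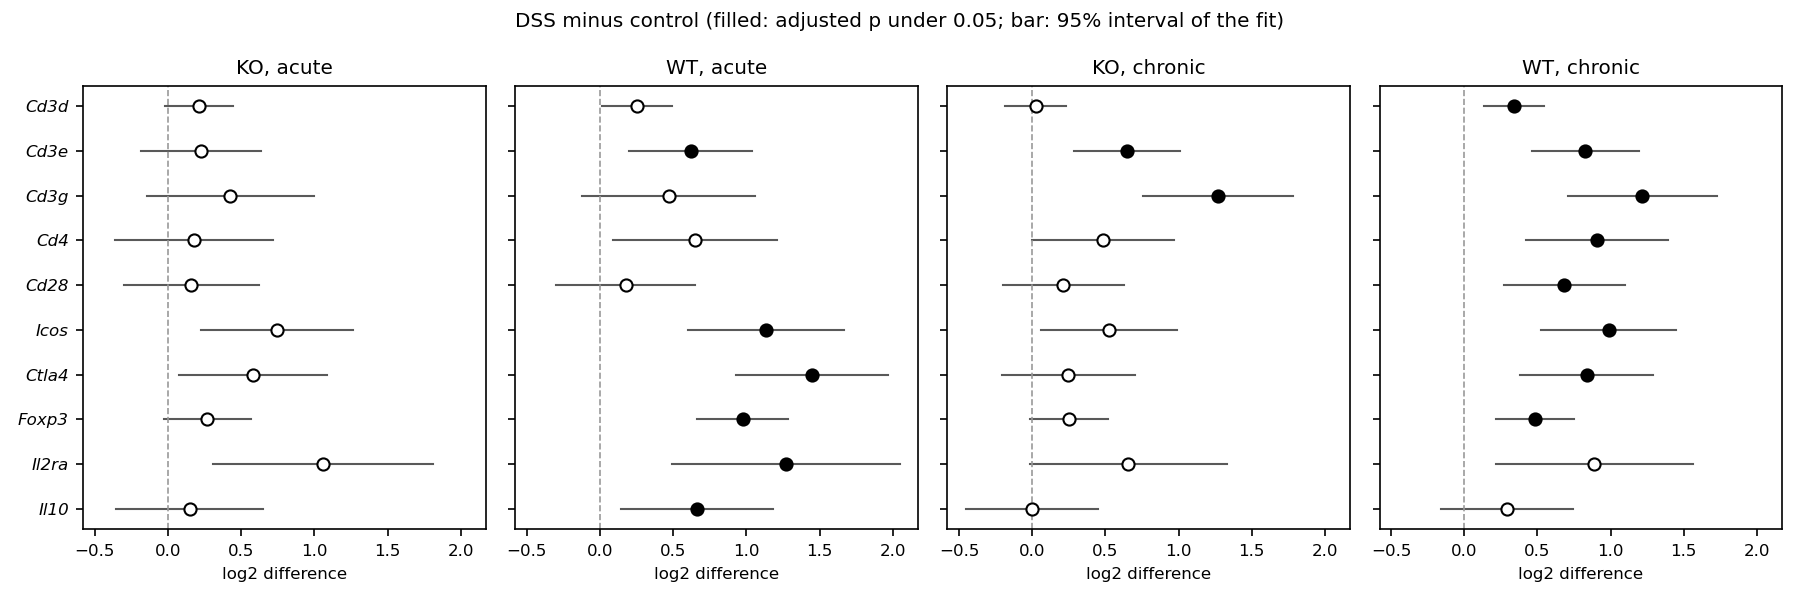
Log2 difference, DSS minus control (horizontal axis), for each of the 10 genes (vertical axis) in KO and WT mice of the acute and the chronic phase; points are limma estimates, filled where the adjusted p is under 0.05, and bars are 95% intervals of the fit. Filled points number 0 in KO acute, 6 in WT acute, 2 in KO chronic and 8 in WT chronic.

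Chronic DSS was compared with its own controls in the same way. In WT colon 8 of 10 genes rose and none fell, where 14.4% of all genes passed and 5.79% passed upward. The median difference of the 10 was 0.83, against -0.00 over all genes. In KO colon 2 of 10 rose, Cd3e and Cd3g, where 7.94% of all genes passed and 2.47% passed upward. The median of the 10 was 0.37 there, against -0.04 over all genes.

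Among the CD3 chains, Cd3g had the largest difference of the 10 genes in both genotypes. Cd3g was 7.49, 7.37, 6.69, 8.11 and 7.69 in KO chronic DSS, against 6.40, 5.89, 6.29, 6.08 and 6.33 in KO controls, and rose by 1.27 ± 0.25 (2.41-fold, adjusted p = 0.00224). In WT mice Cd3g was 7.15, 8.11, 8.23, 7.08 and 7.34 with chronic DSS, against 6.30, 6.70, 6.05, 6.50 and 6.28 in controls, and rose by 1.22 ± 0.25 (2.32-fold, adjusted p = 0.00106). In both genotypes the groups did not overlap. Cd3e rose by 0.65 ± 0.18 in KO (adjusted p = 0.0224) and by 0.83 ± 0.18 in WT (adjusted p = 0.00167), also without overlap. DSS animals lay above all controls in 2.82% of all genes in KO and in 6.23% in WT. Cd3d was unlike them in KO, at 0.02 ± 0.10 (95% interval -0.18 to 0.23), while in WT it rose by 0.34 ± 0.10 (adjusted p = 0.0208).

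Cd4, Cd28 and Icos rose in WT chronic DSS. Cd4 was 8.33, 9.01, 9.16, 8.28 and 8.40, against 7.64, 7.86, 7.47, 7.88 and 7.79 in WT controls, and rose by 0.91 ± 0.24 (adjusted p = 0.00880). Cd28 rose by 0.68 ± 0.20 (adjusted p = 0.0212) and Icos by 0.99 ± 0.23 (adjusted p = 0.00307). None of these 3 groups of DSS animals overlapped with its controls. In KO mice Cd4 differed by 0.48 ± 0.24 (adjusted p = 0.217), Cd28 by 0.21 ± 0.20 (adjusted p = 0.567) and Icos by 0.53 ± 0.23 (adjusted p = 0.151). Icos was nonetheless 7.16 to 7.76 in KO chronic DSS and 6.80 to 7.08 in KO controls, without overlap.

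Ctla4 and Foxp3 rose in WT chronic DSS and did not pass in KO. Ctla4 was 6.93, 6.89, 7.64, 7.15 and 6.91 in WT chronic DSS, against 6.43, 6.30, 6.20, 6.16 and 6.24 in WT controls, and rose by 0.84 ± 0.22 (adjusted p = 0.00977). In KO it was 7.20, 6.57, 6.59, 6.42 and 6.69, against 6.57, 6.29, 6.44, 6.41 and 6.52 in KO controls, and 3 of 5 DSS animals lay above the controls, replicate 1 by the most (0.25 ± 0.22, adjusted p = 0.538). Foxp3 was 7.59, 7.55, 8.18, 7.75 and 7.81 in WT chronic DSS, against 7.36, 7.28, 7.18, 7.38 and 7.28 in WT controls, and rose by 0.48 ± 0.13 (adjusted p = 0.0112). In KO, Foxp3 was 7.70, 7.45, 7.30, 7.52 and 7.69, against 7.20, 7.21, 7.31, 7.45 and 7.24, and the groups overlapped (0.25 ± 0.13, adjusted p = 0.251).

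Il2ra did not pass in the chronic phase although its groups did not overlap in either genotype. It was 7.04 to 7.77 in KO chronic DSS, against 6.60 to 6.86 in KO controls (0.66 ± 0.33, adjusted p = 0.228), and 7.48 to 8.29 in WT chronic DSS, against 6.73 to 7.10 in WT controls (0.89 ± 0.33, adjusted p = 0.0685). The SE of this fit shares 1 spread over all 8 groups, and Il2ra varied most in the acute DSS groups, with SDs of 0.91 in KO and 0.93 in WT. Fitted on the compared groups alone, Il2ra passed in KO (adjusted p = 0.0163) and in WT (adjusted p = 0.00140), and Icos passed in KO (adjusted p = 0.0233) and Il10 in WT (adjusted p = 0.0397). Il10 stayed near its control level in KO, at -0.00 ± 0.22 (95% interval -0.45 to 0.45), and differed by 0.29 ± 0.22 in WT (adjusted p = 0.436).

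The WT chronic DSS mice are all of series 3, as are 3 of the 5 WT controls. Within that series 7 of the 10 passed, where 3090 of all genes did. Cd28 (0.67, adjusted p = 0.101) and Cd3d (0.36, adjusted p = 0.0786) missed, and Il2ra (0.87, adjusted p = 0.0106) passed. Without WT chronic DSS replicate 3, which was highest of its group for 9 of the 10 genes, 5 genes passed in WT in place of 8, and Cd28 (0.47, adjusted p = 0.108), Foxp3 (0.38, adjusted p = 0.0567) and Cd3d (0.27, adjusted p = 0.0874) did not. Cd3d also missed without WT chronic control replicate 3 (0.29, adjusted p = 0.0774), and Cd3e in KO missed without KO chronic DSS replicate 4 (0.55, adjusted p = 0.0805) or KO chronic control replicate 3 (0.63, adjusted p = 0.0527).

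With acute DSS, KO mice were next set against WT mice. The CD3 chains and the regulatory genes lay on opposite sides: Cd3d and Cd3g were higher in KO, and Ctla4 and Foxp3 were lower in KO. These 4 of 10 passed, where 30.9% of all genes did, 15.8% higher and 15.2% lower. The share of the 10 is close to that over all genes. None of the 10 separated the groups without overlap, as 6% of all genes did. The median difference of the 10 was -0.32, against 0.02 over all genes.

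Cd3g had a lowest, median and highest value of 7.34, 8.15 and 8.72 in KO acute DSS, against 7.58, 6.78, 8.21, 7.41 and 7.29 in WT acute DSS. The groups overlapped, and Cd3g was higher in KO by 0.63 ± 0.24 (1.55-fold, adjusted p = 0.0440). Cd3d was 6.64, 6.86 and 7.11 at the lowest, median and highest in KO, against 6.58, 6.40, 6.84, 6.45 and 6.48 in WT. All KO values exceeded 4 of the 5 WT values, and the difference was 0.29 ± 0.10 (adjusted p = 0.0236). Cd3e differed by 0.34 ± 0.17 and did not pass (adjusted p = 0.135).

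Foxp3 was lower in KO by -0.62 ± 0.13 (0.650-fold, adjusted p = 3.58e-04), with 5 of 6 KO animals below all 5 WT animals. The exception was KO replicate 6, at 7.86, between the WT values of 7.79 and 8.07. Leaving out any 1 of the 11 arrays kept the adjusted p of Foxp3 at or below 0.00274. Ctla4 was lower in KO by -0.64 ± 0.21 (0.642-fold, adjusted p = 0.0212), with 4 of 6 KO animals below all WT animals.

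The other 5 did not pass. Cd4 differed by -0.33 ± 0.23 (95% interval -0.79 to 0.13), Icos by -0.30 ± 0.22 (95% interval -0.74 to 0.14) and Il2ra by -0.35 ± 0.32 (95% interval -0.99 to 0.30). Cd28 was at 0.03 ± 0.19 (95% interval -0.37 to 0.42). Il10 differed by -0.52 ± 0.21 (adjusted p = 0.0590), a value that was -0.12 (adjusted p = 0.407) without WT replicate 3. Without that array Cd4 was at -0.14, Icos at -0.07, Il2ra at 0.01 and Cd28 at 0.17.

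Apart from Foxp3, the calls under acute DSS depended on single arrays. Ctla4 missed without WT replicate 3 (-0.40, adjusted p = 0.138), WT replicate 1 (-0.55, adjusted p = 0.0753), KO replicate 5 (-0.54, adjusted p = 0.0634) or KO replicate 4 (-0.56, adjusted p = 0.0543). Cd3d missed without KO replicate 3 (0.23, adjusted p = 0.0732) or WT replicate 2 (0.25, adjusted p = 0.0655), 4 (0.26, adjusted p = 0.0529) or 5 (0.27, adjusted p = 0.0505). Cd3g missed without any 1 of 8 arrays, all but KO replicates 4 and 5 and WT replicate 3, with adjusted p of 0.0608 to 0.157. Without WT replicate 3, Cd3e passed (0.47, adjusted p = 0.0429). Il10 passed without KO replicate 6 (-0.56, adjusted p = 0.0495) or WT replicate 2 (-0.59, adjusted p = 0.0471), 4 (-0.71, adjusted p = 0.00881) or 5 (-0.65, adjusted p = 0.0227). Only 2 genes passed without KO replicate 3 or without WT replicate 1, and Ctla4 missed without the 2 arrays with Y-linked signal (-0.56, adjusted p = 0.0591). Fitted on these 2 groups alone, Foxp3 (adjusted p = 0.0335) was the only one of the 10 to pass.

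The series of animal numbers offers a comparison within series 1, with 3 KO and 5 WT mice on DSS. There Foxp3 differed by -0.65 ± 0.19 (adjusted p = 0.0529), Ctla4 by -0.66 ± 0.34 (adjusted p = 0.221), Cd3d by 0.39 ± 0.12 (adjusted p = 0.0556) and Cd3g by 0.90 ± 0.30 (adjusted p = 0.0750). None of the 10 passed, where 3107 of all genes did, and the 4 differences were as large as over all animals. With the series as a covariate in the fit over all arrays, Foxp3 (-0.65, adjusted p = 0.00192), Cd3d (0.39, adjusted p = 0.00956) and Cd3g (0.90, adjusted p = 0.0159) passed and Ctla4 did not (-0.66, adjusted p = 0.0561).

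**Figure D3:**
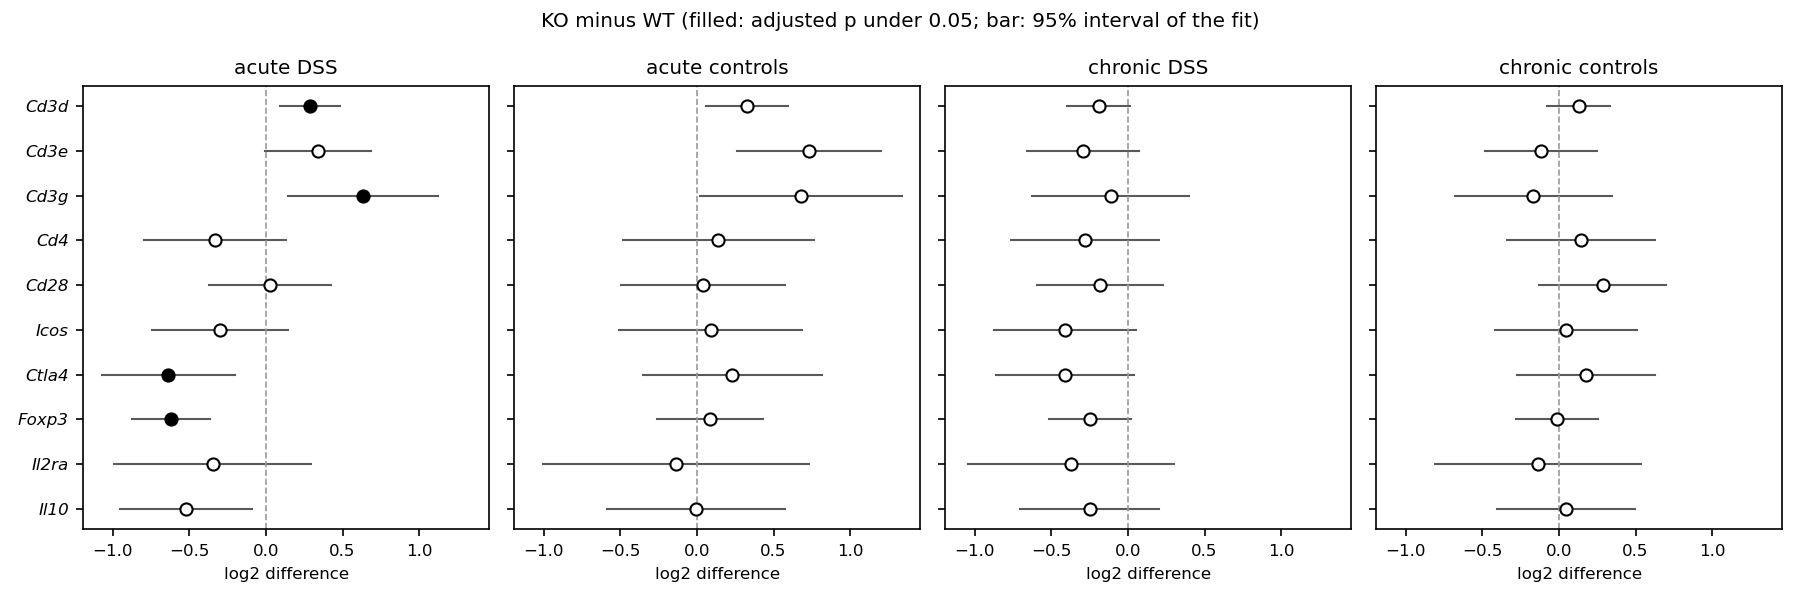
Log2 difference, KO minus WT (horizontal axis), for each of the 10 genes (vertical axis) under acute DSS, in acute controls, under chronic DSS and in chronic controls; points are limma estimates, filled where the adjusted p is under 0.05, and bars are 95% intervals of the fit. The CD3 genes lie to the right in the acute groups, Ctla4 and Foxp3 to the left under acute DSS, and 4 points in all are filled.

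No gene passed between KO and WT acute controls, where 1.12% of all genes did, and 3 of the 10 had an unadjusted p under 0.05. These 3 were the CD3 chains, at 0.33 ± 0.13 for Cd3d (adjusted p = 0.246), 0.73 ± 0.23 for Cd3e (adjusted p = 0.116) and 0.68 ± 0.32 for Cd3g (adjusted p = 0.367). Cd3e was 8.69, 9.06 and 9.12 in KO controls, against 8.28, 8.40 and 8.00 in WT controls. For all 3 chains, and for Ctla4, each KO control lay above each WT control, as 10.8% of all genes did. Foxp3 differed by 0.08 ± 0.17 (95% interval -0.26 to 0.43). Fitted on these 2 groups alone, Cd3e (adjusted p = 0.0248) and Cd3g (adjusted p = 0.0340) passed. The KO controls are of series 2 and the WT controls of series 1, so genotype and series cannot be told apart in them.

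Foxp3 was also set against the CD3 chains within each array, as a description chosen after the values were seen. Under acute DSS Foxp3 had passed as lower and Cd3d and Cd3g as higher in KO, so a separation there was partly built in. The CD3 chains are also shared by cytotoxic T cells, so the quantity does not measure regulatory cells among helper cells. Foxp3 minus the mean of Cd3d, Cd3e and Cd3g ran from -1.02 to -0.31 in KO acute DSS, against 0.26 to 0.58 in WT acute DSS. The same quantity was -0.67 to -0.47 in KO acute controls, against -0.23 to 0.20 in WT acute controls. It overlapped in the chronic phase, at -0.36 to 0.26 in KO chronic DSS, against -0.47 to 0.35 in WT chronic DSS, and at 0.23 to 0.60 in KO chronic controls, against 0.14 to 0.44 in WT chronic controls. Ctla4 minus the CD3 mean was -1.15 to -0.13 in KO acute DSS, against -0.18 to 0.59 in WT acute DSS, with only KO replicate 6 reaching the WT range. It was -1.38 to -1.04 in KO acute controls, against -0.96 to -0.65 in WT acute controls, so that KO lay below WT in the controls as well. In the chronic phase it was -1.46 to -0.45 in KO DSS, against -1.12 to -0.25 in WT DSS. In chronic controls KO lay above WT, at -0.50 to -0.39, against -0.85 to -0.51.

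**Figure D4:**
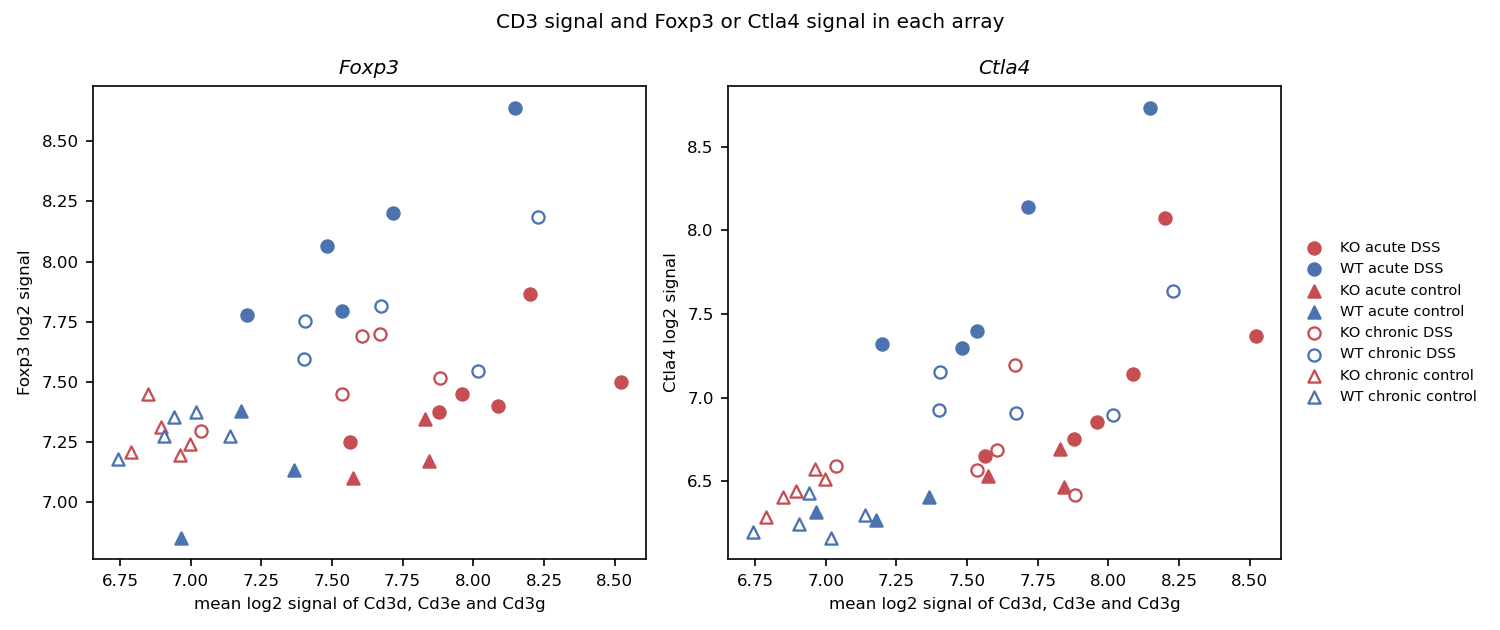
Log2 signal of Foxp3 (left) and Ctla4 (right) on the vertical axis against the mean log2 signal of Cd3d, Cd3e and Cd3g on the horizontal axis, 1 point per array, with KO in red, WT in blue, acute filled, chronic open, DSS as circles and controls as triangles; axes do not start at 0. At a like CD3 signal the WT acute DSS arrays lie above the KO acute DSS arrays for Foxp3, and the chronic groups are mixed.

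Whether DSS acted differently in the genotypes was tested as the KO response minus the WT response. In the acute phase this was below 0 for all 10 genes, with a median of -0.39, against 0.01 over all genes, and Foxp3 alone passed (-0.71 ± 0.21, adjusted p = 0.0269), where 12.3% of all genes did and 5.75% in this direction. Ctla4 was at -0.87 ± 0.36 (adjusted p = 0.102), and the remaining 8 lay between -0.51 and -0.01. The difference in response was also below 0 for all 8 pan-leukocyte and all 12 macrophage markers measured. It was below 0 for 13 of 20 pan-T genes and 6 of 14 cytotoxic markers. Without WT acute DSS replicate 3 the difference in response was above 0 for Cd3d (0.03), Cd3g (0.15), Cd28 (0.13) and Il2ra (0.15). Without the 2 arrays with Y-linked signal it was above 0 for Cd3g (0.11) and Cd28 (0.16). Both times it stayed below 0 for the other genes of the 10. The Foxp3 call ended with the series as a covariate (-0.68, adjusted p = 0.0705), in a fit of the 4 acute groups alone (adjusted p = 0.118), without the 2 arrays with Y-linked signal (-0.70, adjusted p = 0.0535), without WT control replicate 3 (-0.57, adjusted p = 0.112) or 2 (-0.71, adjusted p = 0.0556), and without KO control replicate 3 (-0.64, adjusted p = 0.0811). Ctla4 passed without KO acute DSS replicate 6 (-1.06 ± 0.32, adjusted p = 0.0178).

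In the chronic phase none of the 10 passed for the difference in response, where 0.421% of all genes did, and 1 had an unadjusted p under 0.05, Cd3d at -0.32 ± 0.14 (adjusted p = 0.288). Their median was -0.31, with 9 of 10 below 0 and Cd3g at 0.05 ± 0.35. The difference in response was also below 0 for 18 of 20 pan-T genes, all 8 pan-leukocyte markers and all 12 macrophage markers. It was below 0 for 13 of 14 cytotoxic and 4 of 10 epithelial markers. Between KO and WT mice on chronic DSS the differences of all 10 T cell genes were below 0, from -0.41 for Icos to -0.11 for Cd3g. None passed, where 2.48% of all genes did, and 0 of the 10 had an unadjusted p under 0.05. The same sign was seen there in all 20 pan-T genes, 8 pan-leukocyte, 11 B cell and 12 macrophage markers measured. Of 14 cytotoxic markers 10 were below 0, and of 10 epithelial markers 3. Foxp3 was at -0.25 ± 0.13 there (95% interval -0.51 to 0.02) and Ctla4 at -0.41 ± 0.22 (95% interval -0.86 to 0.04). Without WT chronic DSS replicate 3, Cd3g (0.05) and Cd28 (0.03) were above 0. The other genes of the 10 stayed below 0, with Foxp3 at -0.15 and Ctla4 at -0.28. All KO chronic DSS mice are of series 4 and all WT chronic DSS mice of series 3, so genotype and series cannot be told apart. In chronic controls none of the 10 passed, where 0.1% of all genes did, and the differences lay between -0.17 for Cd3g and 0.29 for Cd28. Cd28 was 6.86 to 7.17 in KO chronic controls and 6.67 to 6.82 in WT chronic controls, without overlap, as 1.36% of all genes were (0.29 ± 0.20, adjusted p = 0.708).

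The chronic response minus the acute response was tested within each genotype. None of the 10 passed in KO, where 0.01% of all genes did, or in WT, where 17% did, and 1 gene in each had an unadjusted p under 0.05. In KO this was Cd3g, at 0.85 ± 0.38 (adjusted p = 0.382). In WT it was Foxp3, at -0.49 ± 0.20 (adjusted p = 0.0876), while Cd3g was at 0.75 ± 0.38 (adjusted p = 0.176). Foxp3 passed in WT without acute control replicate 1 (-0.62, adjusted p = 0.0452), acute DSS replicate 2 (-0.57, adjusted p = 0.0444) or 4 (-0.56, adjusted p = 0.0412), or chronic DSS replicate 3 (-0.59, adjusted p = 0.0354).

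Over the 8 groups the mean Foxp3 signal was, in falling order, 8.10 ± 0.35 in WT acute DSS (SD, n = 5), 7.78 ± 0.25 in WT chronic DSS (SD, n = 5), 7.53 ± 0.17 in KO chronic DSS (SD, n = 5) and 7.47 ± 0.21 in KO acute DSS (SD, n = 6). The 4 control groups followed, from 7.29 ± 0.08 in WT chronic controls (SD, n = 5) to 7.12 ± 0.26 in WT acute controls (SD, n = 3). Each group overlapped with its neighbour in this order. Cd3g was ordered otherwise, with 8.08 ± 0.46 in KO acute DSS (SD, n = 6) on top, then KO acute controls at 7.66 ± 0.22 (SD, n = 3), WT chronic DSS at 7.58 ± 0.54 (SD, n = 5) and KO chronic DSS at 7.47 ± 0.52 (SD, n = 5). Its lowest groups were WT chronic controls at 6.37 ± 0.24 and KO chronic controls at 6.20 ± 0.21 (SD, n = 5 each).

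Animals of 1 group also varied in these genes, and most of the 10 varied together. Taken as deviations from the 8 group means over 37 arrays, Cd4 correlated with the mean of the CD3 chains at r = 0.88, Cd28 at 0.84 and Icos at 0.79. The values were lower for Il2ra at 0.69, Foxp3 at 0.65, Ctla4 at 0.60 and Il10 at 0.37. For each of the 10 genes r was higher within the 21 DSS arrays than within the 16 control arrays. Cd3d, Cd3e and Cd3g are themselves part of the mean, so their own r with it is partly built in. In DSS and in control arrays r was 0.92 and 0.59 for Cd4, 0.69 and 0.43 for Foxp3, 0.62 and 0.41 for Ctla4, and 0.42 and -0.20 for Il10. The spread was wider with DSS: the SD of these deviations was 0.65 in 21 DSS arrays and 0.12 in 16 control arrays for Il2ra, and 0.23 and 0.13 for Foxp3. By r over all 37 arrays the named genes closest to the CD3 mean outside the 10 were Tmem229b, Il2rb and Dnase1l3 (0.88 each), Rasgrp1 (0.87), and Grap2, Gimap3, Gimap4 and P2rx7 (0.86 each). Closest to Foxp3 were Limd2 and Akna (0.91 each), and Carmil2, Il21r and Traf3ip3 (0.90 each). The points share arrays and tissue, so these correlations describe the 37 arrays and carry no p.

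Further T cell genes were counted from lists that were not picked for how they moved here, although earlier results of these data were known. Their counts stand against shares over all genes of 41.2% in WT acute DSS, 1.12% in KO acute DSS, 7.94% in KO chronic DSS, 14.4% in WT chronic DSS and 30.9% between KO and WT mice on acute DSS. Of 20 measured T cell receptor and pan-T genes, 8 rose and 2 fell in WT acute DSS, where 41.2% of all genes passed, with Prkcq, the kinase of T cell receptor signalling, at 1.11 ± 0.20 (adjusted p = 5.08e-05) and the adaptor Lat at 0.70 ± 0.21 (adjusted p = 0.00719). In KO acute DSS none passed, with Lat at 0.57 ± 0.20 (adjusted p = 0.142). In chronic DSS 3 rose in KO and 11 in WT, and Cd7 was among them in both, at 0.97 ± 0.22 in KO (adjusted p = 0.00742) and 0.94 ± 0.22 in WT (adjusted p = 0.00419). Under acute DSS, 5 were higher and 2 lower in KO than in WT, where 30.9% of all genes passed. Cd7 was higher by 0.84 ± 0.21 (adjusted p = 0.00326) and Themis, which acts in thymic selection, by 0.75 ± 0.15 (adjusted p = 3.82e-04), while the interleukin 7 receptor gene Il7r was lower by -0.63 ± 0.24 (adjusted p = 0.0463).

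Among 18 measured genes associated with regulatory T cells, 10 rose in WT acute DSS and none passed in KO acute DSS. The receptor gene Tnfrsf9 was at 0.63 ± 0.21 in KO (adjusted p = 0.121) and rose by 1.36 ± 0.22 in WT (adjusted p = 1.30e-05). In chronic DSS none of the 18 passed in KO, and 6 rose and 1 fell in WT, where the inhibitory receptor gene Tigit rose by 0.98 ± 0.17 (adjusted p = 2.07e-04). Between KO and WT mice on acute DSS, 1 was higher and 7 were lower. Entpd1, which encodes the ectonucleotidase CD39, was lower by -1.33 ± 0.25 (adjusted p = 1.39e-04), Lrrc32, the anchor of latent TGF-beta, by -1.22 ± 0.23 (adjusted p = 1.80e-04) and Tgfb1 by -0.88 ± 0.20 (adjusted p = 9.26e-04). These 3 are also made by endothelial, stromal or myeloid cells. In the same comparison 7 of 12 macrophage and monocyte markers were lower and none higher. The mean of those markers was 8.16 to 9.51 in KO acute DSS, against 9.20 to 10.60 in WT acute DSS, and its part in the regulatory list was not tested.

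Of 20 measured helper lineage regulators and cytokines, 6 were higher and 3 lower in KO than in WT under acute DSS, where 15.8% of all genes were higher and 15.2% lower. Ifng, the interferon gamma gene, was higher by 0.64 ± 0.19 (adjusted p = 0.0102), and the transcription factor genes Maf and Bcl6 were lower by -0.57 ± 0.11 (adjusted p = 1.57e-04) and -0.56 ± 0.18 (adjusted p = 0.0187). In WT acute DSS 6 rose and none fell, where 19.4% of all genes rose, with Maf at 0.85 ± 0.13 (adjusted p = 6.85e-06), and in KO acute DSS none passed. For the difference between the responses Maf was the 1 of 20 that passed, at -0.93 ± 0.18 (adjusted p = 0.00237). Over all genes 12.3% passed in that comparison, 5.75% in this direction. In WT chronic DSS 4 rose, among them Gata3, the regulator of type 2 helper cells, by 0.60 ± 0.11 (adjusted p = 3.49e-04). In KO chronic DSS the 1 gene that passed was Csf2, which fell by 0.30 on the log2 scale (adjusted p = 0.0448).

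Costimulatory ligands, among them ligands of CD28 and CTLA4, were measured as well. Of 9 such genes 4 rose in WT acute DSS, where 19.4% of all genes rose. None passed in KO acute DSS, where 1.12% of all genes did. Cd80 rose by 1.17 ± 0.32 in WT (adjusted p = 0.00350). Under acute DSS Cd80 was lower in KO than in WT by -0.71 ± 0.26 (adjusted p = 0.0382). It was the 1 of 9 that passed there, where 30.9% of all genes passed and 15.2% were lower. In WT chronic DSS 2 rose, where 5.79% of all genes rose. These were Cd80, by 0.84 ± 0.27 (adjusted p = 0.0358), and the PD-1 ligand gene Pdcd1lg2, by 0.58 ± 0.15 (adjusted p = 0.00675). Of 12 measured genes of interleukin 2 and 10 signalling 6 rose in WT acute DSS, where 19.4% of all genes rose. The feedback inhibitor Socs3 rose by 2.58 ± 0.49 there (adjusted p = 1.04e-04) and was at 1.69 ± 0.47 in KO acute DSS (adjusted p = 0.0662). Il2rb and Il10ra, receptor chains for interleukins 2 and 10, rose in WT acute DSS by 0.95 ± 0.30 (adjusted p = 0.0102) and 0.85 ± 0.28 (adjusted p = 0.0169). Between KO and WT mice on acute DSS 2 of these 12 were higher and 4 lower, where 15.8% of all genes were higher and 15.2% lower.

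CD3 genes are shared by cytotoxic T cells, so markers of these cells were also counted. Of 14 cytotoxic T and natural killer markers, 7 were higher and none lower in KO than in WT under acute DSS, where 15.8% of all genes were higher. The granzyme gene Gzma was higher by 1.49 ± 0.23 (adjusted p = 1.39e-05) and Cd8a by 0.70 ± 0.11 (adjusted p = 2.81e-05). The mean of the 14 was 7.21 to 8.09 in KO acute DSS, against 6.74 to 7.49 in WT acute DSS, and 7.05 to 7.41 in KO acute controls, against 6.51 to 6.68 in WT acute controls. In acute DSS 2 of the 14 rose in WT, where 19.4% of all genes rose, and none passed in KO. In chronic DSS 2 rose in KO and 8 in WT, where 2.47% and 5.79% of all genes rose. The part of these markers in the CD3 differences was not tested.

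Markers of other cell types were counted in the same arrays. Of 8 pan-leukocyte markers 6 rose in WT acute DSS, where 19.4% of all genes rose, and 6 in WT chronic DSS, where 5.79% did. None passed in KO in either phase, where 1.12% (acute) and 7.94% (chronic) of all genes did. None passed between KO and WT mice on acute DSS, where 30.9% of all genes did. Of 11 B cell and follicle markers 2 rose in WT acute DSS, a share close to the 19.4% of all genes. In KO under acute DSS 1 was lower, the chemokine gene Cxcl13 (-1.24 ± 0.42, adjusted p = 0.0255), where 15.2% of all genes were lower. Epithelial markers fell in WT acute DSS for 5 of 10, where 41.2% of all genes passed in either direction. Under acute DSS 4 of the 10 were higher in KO than in WT, where 15.8% of all genes were higher. The mean of the epithelial markers was 12.30 to 12.71 in KO acute DSS, against 10.57 to 12.51 in WT acute DSS. The part of these shifts in the values of the 10 T cell genes was not tested.

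**Figure D5:**
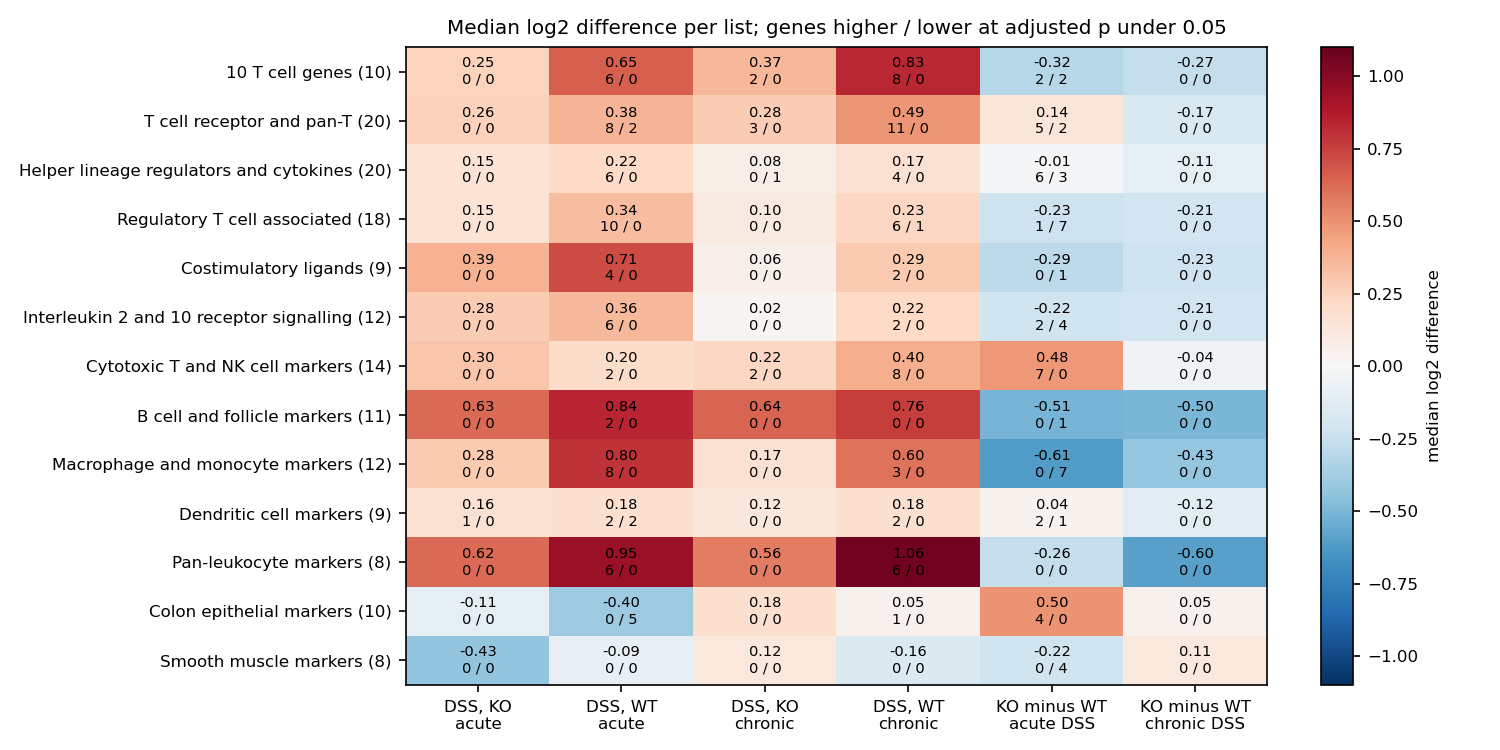
Median log2 difference (colour and upper number) of each gene list (vertical axis, measured genes in brackets) in 6 comparisons (horizontal axis), with the number of genes higher and lower at a limma adjusted p under 0.05 below it. The 10 T cell genes have medians of 0.25, 0.65, 0.37 and 0.83 under DSS, and cytotoxic and macrophage markers have opposite signs between KO and WT mice on acute DSS.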

How the data were processed

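Colon RNA of 37 mice was measured on 37 arrays. The authors deposited 1 log2 signal for each transcript cluster and array. The submitters' processing notes name RMA (robust multi-array averaging) without a version. The log base was read as 2 from the range of 3.03 to 14.96. RMA gives arrays like distributions and pulls dim probes together, so differences of dim genes may be understated.

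The table held 35511 clusters, 21789 of them annotated to 1 symbol. The cluster with the highest mean was kept per symbol, giving 19938 genes. The 8 group means were fitted jointly with limma 3.58.1 (R 4.3.3; 29 residual and 3.18 prior degrees of freedom), followed by Benjamini-Hochberg adjustment over all genes within each of 12 comparisons and two-sided p values. The code was run on simulated normal values with the same spread in all groups for each gene. That run cannot show how the p values behave where DSS groups spread more widely than controls. Replicates are separate animal numbers in the titles and were numbered in accession order.

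The 10 genes and the gene lists were chosen with earlier results of these data known. All 10 were named. Of each other list at most 3 genes per comparison were eligible, those with the largest difference that passed, or the lowest p where none did. Promoters came from RefSeq (GRCm38.p6).

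The alternatives were a trended and robust prior, cyclic loess, array weights, testing all clusters or their mean per symbol, leaving out the dimmest 33.33% of genes, animal series or sex as a covariate, 1 series alone, only the compared groups, and leaving out each array. Sex was read from Y-linked genes.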

Additional observations from a re-analysis of the deposited data

Results flagged for a closer look

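Of 60 tested sets of 5 or 6 arrays (a gene in a group), 3 had an array that stood apart from the others by Dixon's criterion. Chance alone gives about 1 in 20. Cd4 was 8.08 in KO chronic control replicate 4, against 7.77 to 7.85 in the other 4. Icos was 8.52 in WT chronic DSS replicate 3, against 7.64 to 7.85 in the others. Il10 was 8.28 in WT acute DSS replicate 3, against 5.95 to 6.61 in the others.

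For Foxp3 the KO response to acute DSS minus the WT response was -0.71 ± 0.21 (limma adjusted p = 0.0269). It missed the threshold with the series as a covariate (-0.68, adjusted p = 0.0705), with only the 4 acute groups (adjusted p = 0.118), without the 2 arrays with Y-linked signal (adjusted p = 0.0535), and without WT acute control replicate 2 (adjusted p = 0.0556) or 3 (adjusted p = 0.112) or KO acute control replicate 3 (adjusted p = 0.0811).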

How the results depend on the processing

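No paired analysis was possible because replicate numbers were given in accession order and pair no animals. With the main setting, the numbers of the 10 genes that passed for DSS against control were 0 in KO acute, 6 in WT acute, 2 in KO chronic and 8 in WT chronic. Over all genes 1.12%, 41.2%, 7.94% and 14.4% passed in these comparisons. For most alternatives the share over all genes is not given here. Array weights gave 3 in KO acute and 4 in KO chronic. Fitting only the compared groups gave 3 in WT acute and 4 in KO chronic. Without the dimmest 33.33% of genes, which hold Cd3d, Cd3g, Cd28, Ctla4 and Il10, 1 passed in KO chronic and 4 in WT chronic, out of 5 genes left. Leaving out each array gave 0 to 1 in KO acute, 4 to 7 in WT acute, 1 to 2 in KO chronic and 5 to 8 in WT chronic. Between KO and WT mice on acute DSS 4 passed, and 0 within series 1, 1 with only the compared groups, 1 without the dimmest genes and 2 to 4 on leaving out each array. In acute controls 0 passed, and 1 with array weights, 2 with only the compared groups and 0 to 0 on leaving out each array. For the acute difference in response 1 passed, and 0 with the series as a covariate, 0 with only the compared groups, 0 without the 2 arrays with Y-linked signal, an alternative chosen after seeing the data, and 0 to 2 on leaving out each array. For the chronic against the acute response in WT 0 passed, and 2 with array weights (1 higher, 1 lower) and 0 to 1 on leaving out each array. Leaving out each array gave 0 to 0 for KO against WT on chronic DSS, for chronic controls, for the chronic difference in response and for the chronic against the acute response in KO. No call changed direction under the alternatives run. Of 21 calls, 9 passed under each alternative run for that gene. The cause of these changes was not tested, except that fewer genes or arrays enter some fits. Among the 10 genes 5 are dim, and their signal over background was not measured here.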
